A study of Mus musculus with 18 samples.

Results

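The 52 genes described here are the mouse genes of mitosis and the spindle checkpoint, chosen by name for their known roles and matched by identifier to the 46078 genes of the RNA-seq table. The rule names no measured value, but the choice was made with earlier results of these data known. All 52 were found, and all passed the filter on low counts that left 15514 genes for testing. Chromatin accessibility was read from the ATAC-seq peaks within 1000 bp of each gene's start site, which gave 52 of the 111664 peaks for 51 of the genes, with Kif14 the gene that had none.

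The RNA and the open chromatin came from small cell lung cancer (SCLC) cells of mice whose lungs received adenovirus-Cre at 8 weeks of age and which were killed 28 weeks later, with 3 animals for each of 3 genotypes. TKO tumors carried floxed Rb1, Rbl1 and p53, as the labels give them, although the study's text also names Rbl2 in place of Rbl1. TKO;Carm1KO tumors (Carm1KO below) carried in addition floxed alleles of Carm1, an arginine methyltransferase that methylates the transcription factor NFIB. TKO;NfibR388K tumors (NfibR388K below) carried the germline NfibR388K allele, whose product lacks the methylated arginine. All animals therefore share floxed alleles of Rb1, the gene of the retinoblastoma protein that restrains cell cycle genes. Whether Cre had removed Rb1 in the cells sequenced was not tested. The NfibR388K change is present in every cell of its animals rather than in the tumor alone. The study's methods describe sorting of tdTomato-positive cells, and other passages of the study speak of tumor biopsies and cell lines, so the exact material is stated in more than one way.

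Mitosis runs on a periodic set of gene products. Cyclin B with Cdk1 drives entry, condensin and topoisomerase II shape the chromosomes, kinesins and kinetochore proteins build the spindle attachment, the checkpoint holds the anaphase-promoting complex until every chromosome is attached, and Anln, Ect2 and Prc1 guide the final cleavage. Most of these genes are transcribed late in the cell cycle through the DREAM and MYB-MuvB-FOXM1 complexes, which bind a promoter element called the CHR, commonly beside CCAAT boxes that bind NF-Y. SCLC is known for its high rate of division.

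Counts assigned to genes numbered 15848866 to 20915057 per RNA library, and counts in peaks 26917178 to 47653979 per ATAC library. Nfib RNA was 419.6, 579 and 570.0 CPM in TKO replicates 1 to 3, 74.4, 216 and 87.1 in Carm1KO and 105, 83.2 and 91.3 in NfibR388K (CPM, counts scaled to the TMM library size), a log2 fold change of -2.06 in Carm1KO and -2.49 in NfibR388K. Carm1 RNA was 97.6, 103 and 44.5 CPM in TKO replicates 1 to 3, 63.3, 79.0 and 50.7 in Carm1KO and 100.3, 104 and 102 in NfibR388K. The Carm1KO libraries lay within the range of TKO, and a count over the whole gene does not test the exons that Cre removes. Markers of the labelled tumor type separated the genotypes: 12 of 12 neuroendocrine markers reached 1 CPM in all TKO libraries, 2 of 12 did so in all Carm1KO libraries and 2 of 12 in all NfibR388K libraries. Their summed level was 1820 to 4408 CPM in TKO, 34.0 to 51.4 CPM in NfibR388K, and 59.3, 188 and 1842 CPM in Carm1KO replicates 1, 2 and 3. Calca alone made 832 CPM of the sum in Carm1KO replicate 3, against 5.13 to 21.9 CPM in TKO. In that library Chga (210), Dll3 (13.9) and Scg2 (110 CPM) lay within the TKO range, and the remaining neuroendocrine markers lay below every TKO library. The 6 fibroblast markers (Col1a1, Col1a2, Col3a1, Dcn, Lum, Pdgfra) summed to 11.1 to 63.3 CPM in TKO, 14430 to 25750 CPM in Carm1KO and 9464 to 15890 CPM in NfibR388K. Leukocyte markers (12) summed to 4.16 to 54.8, 181 to 2667 and 28.5 to 586 CPM, lung epithelial markers (10) to 282 to 633, 3.45 to 879 and 3.11 to 2902 CPM, and endothelial markers (6) to at most 17.4 CPM in any library, in the same order of genotypes. The lung epithelial markers did not move together. Nkx2-1 made most of the TKO sum (600, 386 and 236 CPM in replicates 1 to 3) and, with Foxj1 and Scgb1a1, was lower on average in the mutants. Sftpb, Cdh1, Krt8 and Krt18 were at no more than 3.21 CPM in any TKO library. They reached 1734, 257, 442 and 184 CPM in their highest mutant libraries. Of the defining markers of those lists, Cd3e, Ms4a1, S100a9, Nkg7, Emcn and Cldn5 had no more than 3 counts in any library. Reads outside annotated genes were 9.995 to 12.2% of the total in TKO and 3.65 to 5.17% in the mutants. These differences run alongside every comparison of a mutant with TKO below, and their part in the results was not tested. Because RNA came from pools of cells, fewer dividing cells and less RNA per dividing cell cannot be told apart.

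**Figure D1:**
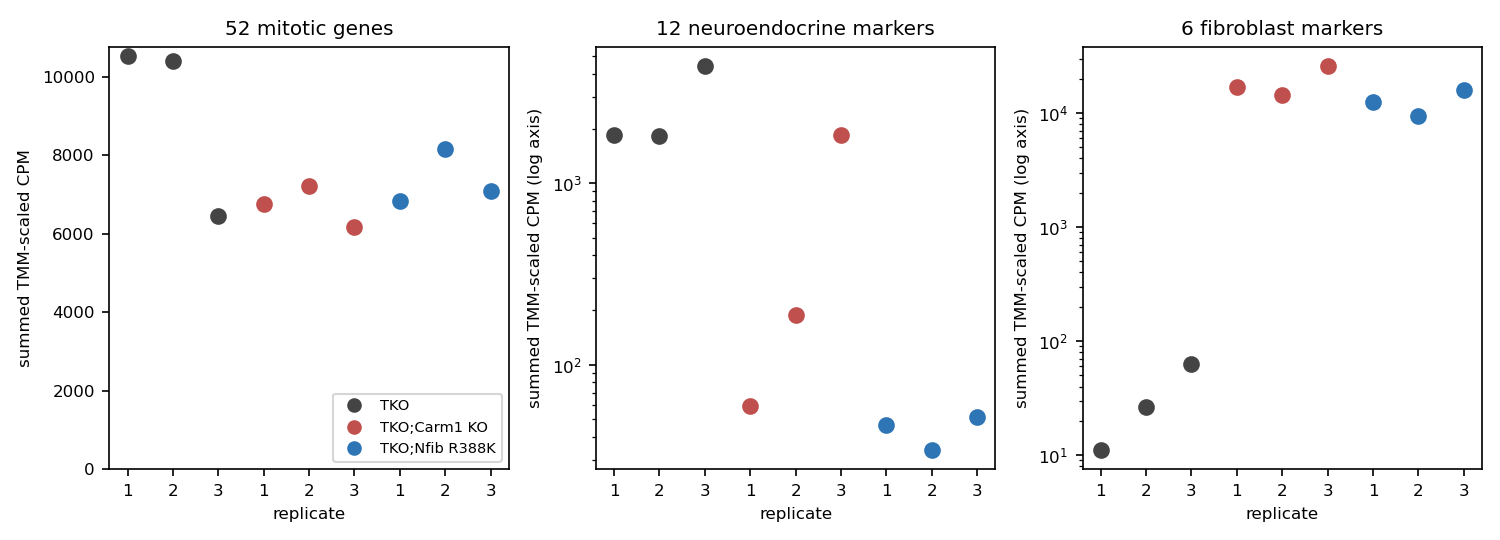
Summed TMM-scaled CPM of the 52 mitotic genes (linear axis) and of the neuroendocrine and fibroblast markers (log axes), 1 point per RNA library. Replicate 3 of TKO lies with the mutants for the mitotic genes, at 6449 CPM against 10545 and 10396 CPM in the other TKO libraries, and the fibroblast markers are at or above 9464 CPM in all mutant libraries.

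Together the 52 genes made 10545, 10396 and 6449 CPM in TKO replicates 1 to 3, 6762, 7228 and 6182 CPM in Carm1KO and 6848, 8155 and 7102 CPM in NfibR388K. TKO replicate 3 therefore lay inside the range of the mutant libraries, and it was the lowest of the TKO libraries for 49 of the 52 genes. All 6 mutant libraries were below TKO replicates 1 and 2 for 28 genes (53.8%, against 29.3% of all genes, a split of TKO chosen after the values were seen), but below all 3 TKO libraries for 9.

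In Carm1KO against TKO, 12 of 52 fell and 3 rose (23.1% and 5.77%), beside 18.3% and 20.5% of all genes tested, with a call meaning an adjusted p below 0.1 in edgeR's quasi-likelihood test and a log2 fold change of at least 0.8 in size. In NfibR388K against TKO, 9 fell and 5 rose, 17.3% and 9.62%, beside 23.5% and 22.3% of all genes. With both mutants as 1 group, 10 fell and 3 rose, 19.2% and 5.77%, beside 24.7% and 22.3%. All 6 mutant libraries lay below all TKO libraries for 9 genes (17.3%, against 23.3% of all genes) and above them for 4 (7.69%, against 22.3%). The median log2 fold change of the 52 genes was -0.32 in Carm1KO, -0.27 in NfibR388K and -0.28 together, where the medians of all genes were -0.03, -0.05 and -0.04. The shares that fell lay within a few points of those of all genes, and the shares that rose lay under them.

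The size of the decrease changed with each TKO library and with the scaling. Without TKO replicate 3, 14 genes fell and 2 rose with the mutants together and the median became -0.48, beside 21.7% and 22.6% of all genes and a median of 0.03. Without TKO replicate 1 the counts were 9 and 3 with a median of -0.16 (21% and 20.2% of all genes). Without TKO replicate 2 they were 8 and 4 with a median of -0.15 (21.7% and 19.1%). Under scaling by library totals alone, which moves the median of all genes from -0.04 to -0.34, 16 fell and 1 rose with a median of -0.57, beside 31.9% and 17.4% of all genes.

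**Figure D2:**
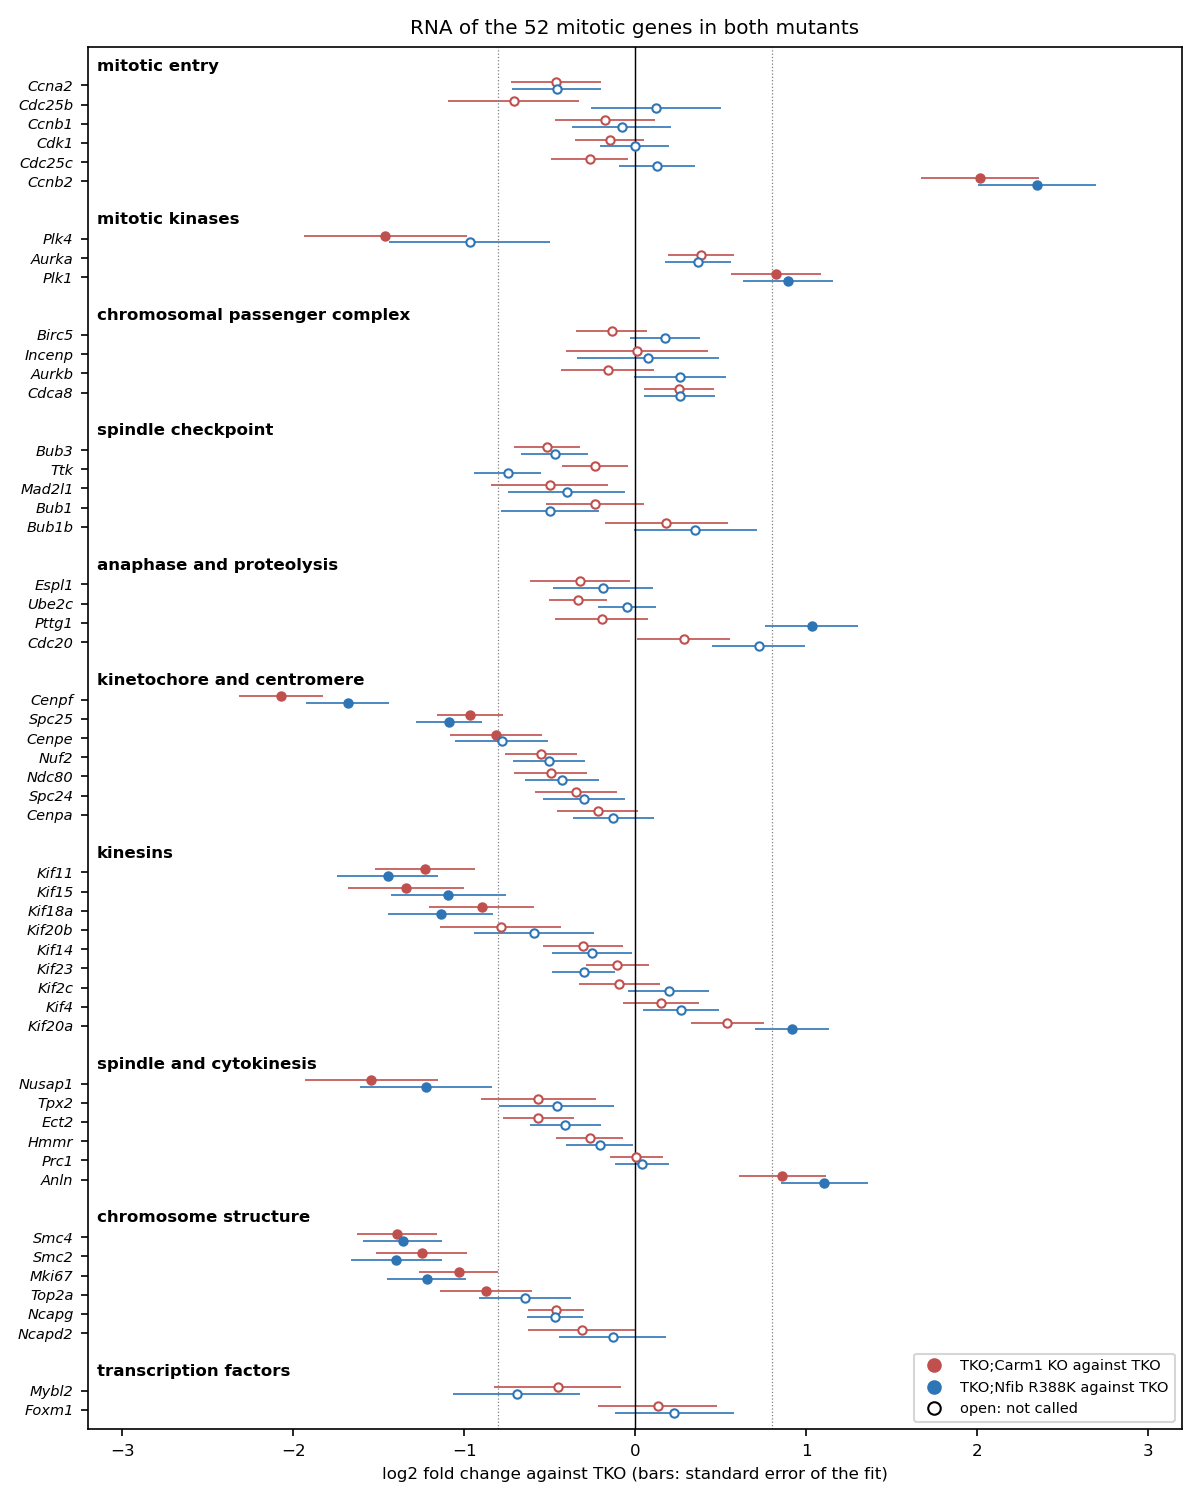
Log2 fold change of each of the 52 genes in Carm1KO (red) and NfibR388K (blue) against TKO, ordered by role, with the standard error of the fit as bars, filled points for called genes and dotted lines at the fold minimum. Chromosome structure and kinetochore genes lie mostly left of 0, and Ccnb2 stands apart on the right at a log2 fold change above 2 in both mutants.

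Among the 6 genes of mitotic entry, Ccnb2 rose and the others did not pass the test, where 24.7% of all genes fell and 22.3% rose with the mutants together. Ccnb2, a B-type cyclin, was at 16.2, 14.1 and 32.7 CPM in TKO replicates 1 to 3, 68.1, 105 and 82.0 in Carm1KO and 94.0, 122 and 106 in NfibR388K. Every mutant library was above every TKO library, and the log2 fold change with the mutants together was 2.18 ± 0.32 SE, adjusted p = 0.00159, 4.58-fold by the means. It was called under all 16 other settings examined, at 1.87 to 2.69. Ccnb1, the other main B-type cyclin, was at 243, 309 and 139.5 CPM in TKO replicates 1 to 3, 210.2, 241 and 161 in Carm1KO and 206, 242 and 208 in NfibR388K. The groups overlapped, with a log2 fold change of -0.13 ± 0.25 SE, adjusted p = 0.695. Per kilobase of exon, Ccnb2 was at 13.7 CPM in TKO, rank 40 of the 52 genes, and at 55.6 and 70.0 CPM in Carm1KO and NfibR388K, where Ccnb1 was at 54.7, 48.4 and 51.8 CPM. Reads of Ccnb1 can be shared with 3 processed pseudogenes that match its transcript at 97.4 to 99.2% over 1287 or 1294 bases, so its counts carry that uncertainty. Cdk1, the mitotic kinase itself, was at 194, 210.3 and 167 CPM in TKO replicates 1 to 3, 195, 196 and 125 in Carm1KO and 175, 202 and 194 in NfibR388K. All groups overlapped (-0.07 ± 0.17 SE, adjusted p = 0.74 on the log2 scale). Ccna2, cyclin A, had 246, 283 and 154 CPM in TKO replicates 1 to 3, 140.1, 202 and 154 in Carm1KO and 154, 198 and 145 in NfibR388K, at -0.46 ± 0.22 SE, adjusted p = 0.119. Cdc25b and Cdc25c, the phosphatases that activate Cdk1, were at log2 fold changes of -0.29 and -0.07.

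The 3 mitotic kinases went different ways. Plk1, which acts on centrosomes, kinetochores and cytokinesis, was at 116, 131 and 85.4 CPM in TKO replicates 1 to 3, 203, 229 and 157 in Carm1KO and 153, 199.6 and 267 in NfibR388K. All mutant libraries were above all TKO libraries, at 0.86 ± 0.23 SE, adjusted p = 0.0181. That call was lost without TKO replicate 3 (0.74), without NfibR388K replicate 3 (0.75), under library totals alone (0.56) and with the offset for base composition described below (0.61). Aurka, the centrosomal kinase, was at 88.5, 109 and 76.5 CPM in TKO replicates 1 to 3, 121, 135 and 102 in Carm1KO and 104, 112 and 137 in NfibR388K. Its log2 fold change of 0.37 ± 0.17 SE, adjusted p = 0.0982 was under the fold minimum. Plk4, which starts centriole duplication, was the least abundant of the 52 genes at 8.49, 8.95 and 3.98 CPM in TKO replicates 1 to 3, 2.23, 2.62 and 2.92 in Carm1KO and 2.91, 5.05 and 2.98 in NfibR388K. It fell with the mutants together (-1.21 ± 0.39 SE, adjusted p = 0.0341), was called in Carm1KO but not in NfibR388K, and was not called without TKO replicate 1 or without TKO replicate 2.

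None of the 4 genes of the chromosomal passenger complex and none of the 5 spindle checkpoint genes was called in any comparison. Of all genes, 24.7% fell and 22.3% rose with the mutants together. Incenp, the scaffold of the passenger complex, was at 213, 187 and 61.9 CPM in TKO replicates 1 to 3, 139.5, 188 and 138 in Carm1KO and 128, 179 and 179 in NfibR388K. Its spread within TKO exceeded the difference between genotypes (0.04 ± 0.36 SE, adjusted p = 0.931). Birc5, survivin, was at 131, 116 and 82.9 CPM in TKO replicates 1 to 3, 90.8, 121 and 88.6 in Carm1KO and 117, 122 and 133 in NfibR388K (0.02 ± 0.18 SE, adjusted p = 0.94). Aurkb and Cdca8 were at log2 fold changes of 0.05 and 0.26. Of the checkpoint genes, Bub3 was at 229, 260.3 and 180.1 CPM in TKO replicates 1 to 3, 147, 181 and 140.2 in Carm1KO and 138, 162 and 183 in NfibR388K. Its log2 fold change of -0.49 ± 0.17 SE, adjusted p = 0.0383 passed the p threshold but not the fold minimum. Bub1b (BubR1) was at 206, 158 and 65.2 CPM in TKO replicates 1 to 3, 156, 181 and 150.4 in Carm1KO and 171, 192 and 185 in NfibR388K (0.27 ± 0.31 SE, adjusted p = 0.501). Mad2l1, Bub1 and Ttk, the Mad2 protein and a pair of checkpoint kinases, were at -0.45, -0.36 and -0.49.

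For exit from mitosis, Cdc20, the activator of the anaphase-promoting complex, was at 184, 190.4 and 113 CPM in TKO replicates 1 to 3, 185, 259.9 and 149.8 in Carm1KO and 227, 289.6 and 289 in NfibR388K (0.50 ± 0.24 SE, adjusted p = 0.115). Its NfibR388K value, 0.72 ± 0.27 SE, adjusted p = 0.0631, was just under the fold minimum and passed it without TKO replicate 1, TKO replicate 2 or NfibR388K replicate 1. Ube2c, the ubiquitin-conjugating enzyme of that complex, was at 212, 254 and 173 CPM in TKO replicates 1 to 3, 174, 176 and 156 in Carm1KO and 196, 224 and 200.4 in NfibR388K (-0.19 ± 0.15 SE, adjusted p = 0.305). Pttg1, securin, was at 21.1, 21.7 and 23.4 CPM in TKO replicates 1 to 3, 22.6, 18.8 and 16.4 in Carm1KO and 61.5, 30.1 and 43.7 in NfibR388K. It rose in NfibR388K (1.03 ± 0.27 SE, adjusted p = 0.019) and was at -0.20 ± 0.27 SE, adjusted p = 0.594 in Carm1KO. Espl1, separase, was at -0.25.

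Kinetochore genes were all below TKO in their fitted values, and 2 of 7 fell with the mutants together, beside 24.7% of all genes. Cenpf, a large kinetochore protein, was at 328, 463 and 293 CPM in TKO replicates 1 to 3, 88.0, 82.9 and 87.0 in Carm1KO and 118, 137 and 82.6 in NfibR388K. The groups did not overlap, and its log2 fold change of -1.88 ± 0.20 SE, adjusted p = 0.000537, 27.5% of TKO by the means, was the lowest of the 52 genes. Spc25, of the Ndc80 complex, had 85.1, 82.2 and 64.8 CPM in TKO replicates 1 to 3, 46.6, 31.3 and 40.8 in Carm1KO and 34.8, 38.7 and 35.5 in NfibR388K and -1.03 ± 0.16 SE, adjusted p = 0.002, also without overlap. Cenpe, a kinetochore motor, was called in Carm1KO at -0.81 and was at -0.78 in NfibR388K, so the values on either side of the fold minimum were close. The other members of the Ndc80 complex, Ndc80, Nuf2 and Spc24, were at -0.46, -0.53 and -0.32. Cenpa, the centromeric histone, was at 159, 158 and 99.3 CPM in TKO replicates 1 to 3, 106, 147 and 104 in Carm1KO and 126, 146 and 109 in NfibR388K (-0.17 ± 0.20 SE, adjusted p = 0.505).

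Of the 9 kinesins, Kif11, Kif15 and Kif18a fell with the mutants together, where 24.7% of all genes fell. Kif11 (Eg5), which pushes the spindle poles apart, was at 319.6, 317 and 148 CPM in TKO replicates 1 to 3, 100.4, 115 and 119 in Carm1KO and 104, 104 and 80.0 in NfibR388K (-1.34 ± 0.24 SE, adjusted p = 0.00352), with no mutant library above the lowest TKO library. Kif15, which can support the same pole separation, and Kif18a, which limits chromosome movement, were at -1.22 and -1.02, with overlapping groups. Kif20a, a cytokinesis motor, was at 116, 151 and 86.4 CPM in TKO replicates 1 to 3, 165, 183 and 165 in Carm1KO and 191, 243 and 233 in NfibR388K. All mutant libraries were higher than all TKO libraries, and it was called in NfibR388K (0.92 ± 0.21 SE, adjusted p = 0.012) but not with the mutants together (0.73 ± 0.19 SE, adjusted p = 0.0155). Its exons share 29.3% of their length with Cdc23 on the opposite strand, and the strand setting of the counting is not stated, so its reads are uncertain. The same limit holds for Ube2c (22.8%), Kif4 (15.1%), Ncapg (13.4%), Cdc25c (12.7%), Ccna2 (12.5%) and Prc1 (11.1%), each with an opposite-strand gene. The kinesins Kif20b, Kif14, Kif23, Kif2c and Kif4 ranged from -0.69 to 0.21 and none was called.

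Among the 6 spindle and cytokinesis genes, Nusap1 fell and Anln rose, beside 24.7% and 22.3% of all genes with the mutants together. Nusap1, which bundles spindle microtubules, was at 203, 181 and 74.6 CPM in TKO replicates 1 to 3, 48.1, 40.1 and 69.2 in Carm1KO and 75.8, 69.9 and 50.9 in NfibR388K (-1.38 ± 0.32 SE, adjusted p = 0.00977), with TKO replicate 3 inside the mutant range. Anln, anillin of the contractile ring, was at 168, 169.5 and 156 CPM in TKO replicates 1 to 3, 289, 361 and 248 in Carm1KO and 249, 474 and 341 in NfibR388K. Every mutant library was above every TKO library, at 0.99 ± 0.23 SE, adjusted p = 0.00926, and the call was lost under library totals alone (0.68). Tpx2, which activates Aurora A on the spindle, was at 679, 312 and 270.4 CPM in TKO replicates 1 to 3, 302, 268 and 281 in Carm1KO and 263, 345 and 310.0 in NfibR388K. TKO replicate 1 was far above the other TKO libraries (-0.51 ± 0.29 SE, adjusted p = 0.167). Prc1, Hmmr and Ect2 were at 0.02, -0.24 and -0.49.

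Of the 6 chromosome structure genes, 3 fell with the mutants together and 4 in Carm1KO (24.7% and 18.3% of all genes). With the offset for base composition Mki67 was the 1 still called with the mutants together. Smc2 and Smc4, the ATPase pair common to both condensins, both fell. Smc2 was at 356, 333 and 208 CPM in TKO replicates 1 to 3, 155, 109.5 and 113 in Carm1KO and 123, 130.2 and 87.5 in NfibR388K (-1.32 ± 0.22 SE, adjusted p = 0.00249). Smc4 was at 385, 430.5 and 307 CPM in TKO replicates 1 to 3, 134, 156 and 138 in Carm1KO and 151, 182 and 105 in NfibR388K (-1.38 ± 0.19 SE, adjusted p = 0.00125). For both genes all mutant libraries lay below all TKO libraries. The condensin I subunits Ncapg and Ncapd2 were at -0.47 and -0.22 and were not called. Mki67, the Ki-67 proliferation marker, was at 1008, 931 and 687 CPM in TKO replicates 1 to 3, 450.4, 386 and 448 in Carm1KO and 346, 474 and 309 in NfibR388K. The groups did not overlap, at -1.12 ± 0.19 SE, adjusted p = 0.00275. Top2a, topoisomerase II alpha and the most abundant of the 52 genes per kilobase in TKO, was at 1303, 1145 and 659 CPM in TKO replicates 1 to 3, 603, 557 and 537 in Carm1KO and 749, 683 and 559 in NfibR388K. TKO replicate 3 lay within the mutant range. It was called in Carm1KO (-0.87 ± 0.27 SE, adjusted p = 0.0372) but not with the mutants together (-0.76 ± 0.22 SE, adjusted p = 0.0249).

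The transcription factors of the late cell cycle were not called. Foxm1 was at 215, 266 and 102 CPM in TKO replicates 1 to 3, 200.1, 254 and 185 in Carm1KO and 183, 286 and 214 in NfibR388K (0.18 ± 0.30 SE, adjusted p = 0.642). Mybl2 (B-Myb) was at 145, 115 and 54.8 CPM in TKO replicates 1 to 3, 68.8, 102 and 59.7 in Carm1KO and 49.95, 70.6 and 74.3 in NfibR388K (-0.57 ± 0.31 SE, adjusted p = 0.161). Mybl2 passed both thresholds without TKO replicate 3 (-0.85), under library totals alone (-0.87) and with the offset for base composition (-0.83). Reads of Mybl2 can be shared with a processed pseudogene that matches its transcript at 99.7% over 742 bases.

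**Figure D3:**
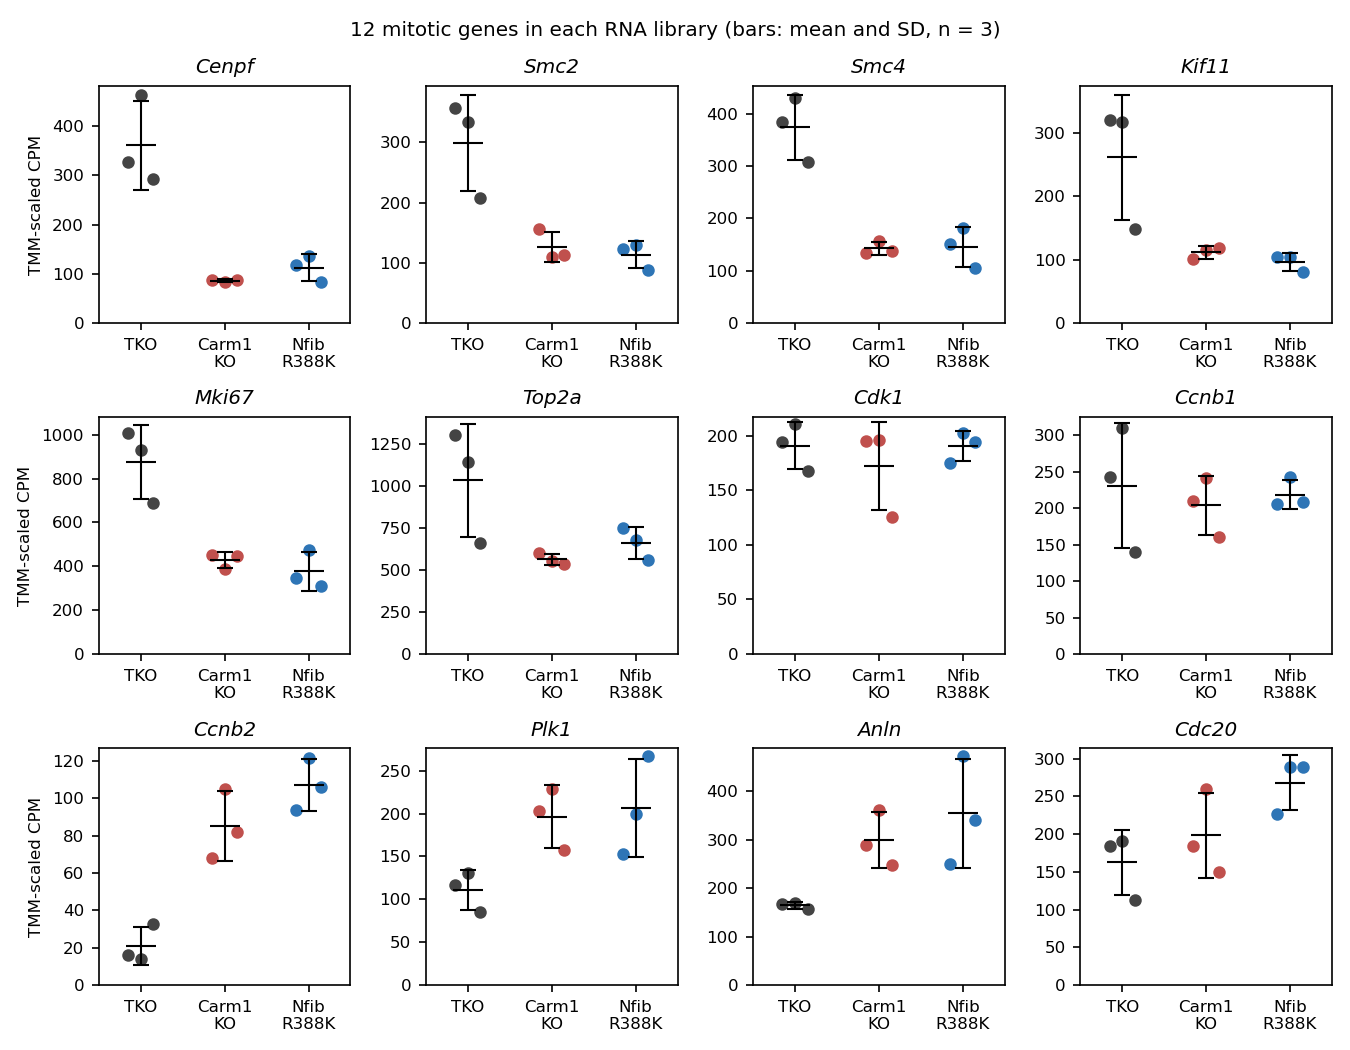
TMM-scaled CPM of 12 mitotic genes in each of the 9 RNA libraries, with the mean and SD of the 3 libraries per genotype as bars. Cenpf, Smc2, Smc4, Kif11 and Mki67 are lower in all mutant libraries, Ccnb2, Plk1 and Anln are higher in all of them, and the genotypes overlap for Cdk1, Ccnb1, Top2a and Cdc20.

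With the 2 mutants against each other, none of the 52 genes was called in either direction (background 0% lower and 0% higher, edgeR quasi-likelihood test), and 2 members and 1415 of all genes had an unadjusted p below 0.05. Those members, named after their values were seen, were Pttg1, higher in NfibR388K (Carm1KO minus NfibR388K -1.23, 95% interval -1.86 to -0.59, adjusted p = 0.474), and Ttk, higher in Carm1KO (0.51, 95% interval 0.06 to 0.96, adjusted p = 0.525). DESeq2 called Pttg1 alone of the 52, at -1.23 (adjusted p = 0.012), and 538 of 27468 genes in all. For Ccnb2 the difference was -0.33, 95% interval -1.10 to 0.43, for Mki67 0.19, 95% interval -0.34 to 0.71 and for Plk4 -0.49, 95% interval -1.58 to 0.59, so these intervals leave room for differences in either direction. Both mutants were compared with the same TKO libraries, and their lists of called genes are therefore not independent. By count, 9 genes fell in both (Cenpf, Spc25, Kif11, Kif15, Kif18a, Nusap1, Mki67, Smc2 and Smc4) and 3 rose in both (Ccnb2, Plk1 and Anln). The share of all genes called in both mutants is not given here, so these counts have no background of their own. Of all genes, 18.3% fell in Carm1KO and 23.5% in NfibR388K, and 20.5% and 22.3% rose.

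Of the 10 genes that fell, 9 lay below the median G and C content of the 52. Across the 52 genes, the log2 fold change with the mutants together rose with the G and C content of the transcript (Spearman 0.63, Pearson 0.53, n = 52 genes that share the same libraries), where over 13937 protein-coding genes tested it was 0.12 and 0.03. Of the 26 genes below the median content (38.3 to 46.1%), 9 fell and 1 rose, with a median of -0.51, and of the 26 at or above it (46.3 to 56.3%), 1 fell and 2 rose, with a median of -0.03. Over all genes tested 24.7% fell and 22.3% rose, and the shares of all genes in these ranges of content are not given here. Transcript length ran the other way (Spearman -0.44). With an offset for GC content in the fit, added after these values were seen, 6 genes fell and 3 rose, beside 22.7% and 22.5% of all genes. The median of the 52 genes moved from -0.28 to -0.05. The offset was fitted with the genotype differences in place, so it also removes differences that follow GC content over all genes. Whether GC content affected the counts themselves was not tested. Cenpf, Spc25, Kif11, Nusap1 and Mki67 were still called lower, Smc2 (-0.62), Smc4 (-0.70), Plk4, Kif15 and Kif18a were not, and Mybl2 (lower) and Kif20a (higher) became called while Plk1 was not.

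**Figure D4:**
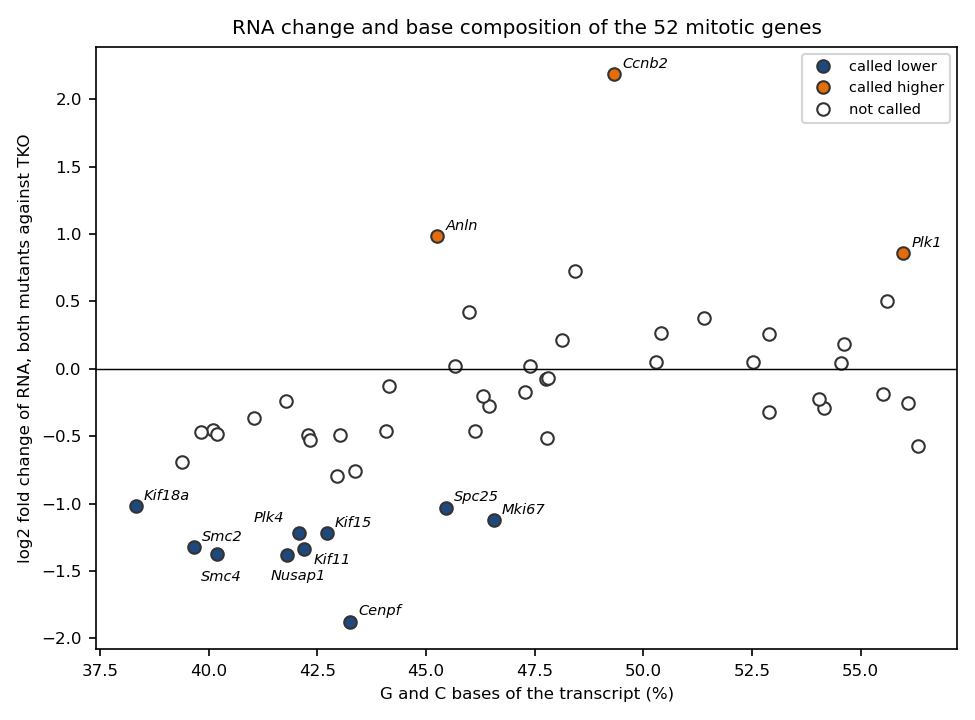
Log2 fold change of RNA with both mutants against TKO, plotted against the G and C content of the transcript, 1 point per gene. The called lower genes lie at 38.3 to 46.6% G and C, and Ccnb2, Anln and Plk1 are above 0.

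Genes of the same processes outside the 52 were counted in the same way. Of 109 other mitotic genes in 7 lists, all tested, 23 fell and 4 rose with the mutants together (21.1% and 3.67%, beside 24.7% and 22.3% of all genes), with a median of -0.26. Of 33 other kinetochore and centromere genes 7 fell and 1 rose, with Mad1l1, the Mad2 partner, highest (0.95 ± 0.24 SE, adjusted p = 0.0138). Among 13 genes of cohesin, the ring that holds sister chromatids together, and its regulators, 6 fell and none rose, with the acetyltransferase Esco2 lowest (106, 86.2 and 48.5 CPM in TKO replicates 1 to 3, 17.1, 17.9 and 16.7 in Carm1KO and 25.9, 25.7 and 9.20 in NfibR388K, -2.10 ± 0.35 SE, adjusted p = 0.00259) and Cdca5 highest at 0.28. The remaining 4 condensin subunits held 2 that fell, with Ncapg2 of condensin II at -1.14 ± 0.23 SE, adjusted p = 0.00575 and Ncaph2 at 0.56. Of 22 other spindle and cytokinesis genes 4 fell and 1 rose, from Psrc1 (-2.11) to the GTPase Rhoa (1.43). In the 14 other genes of entry and exit control 3 fell and none rose, from Fbxo5 (Emi1, an inhibitor of the anaphase-promoting complex, -1.33 ± 0.15 SE, adjusted p = 0.000677) to Cks1b (0.54). The 13 genes of the anaphase-promoting complex held none that fell and 1 that rose, Anapc2 (1.11 ± 0.15 SE, adjusted p = 0.00122), with Cdc27 lowest at -0.44. Of 10 MuvB and DREAM genes 1 fell, Lin52 (-1.02), and 1 rose, E2f4 (1.21).

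Promoter sequence was read from RefSeq's windows of 250 bases before to 50 bases after the start site (GRCm38.p6), which matched 43 of the 52 genes in 46 windows. The CHR, searched as TTTGAA or TTCGAA on both strands, was in 78.3% of these windows, against 19.2% of all 32851 promoter windows. CCAAT was in 71.7%, against 37.4%, and both were in 67.4%, against 7.52%. The E2F sites TTTGGCGC, TTTGCCGC, TTTCGCGC and TTTCCCGC were in 10.9%, against 2.26%. The full NFI palindrome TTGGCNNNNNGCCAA was in none of the 46 windows and in 0.0365% of all. Matches of different motifs overlapped in 1 of the 46 windows. By call, the CHR was in 6 of the 9 genes with a window that fell, 3 of the 3 that rose and 24 of the 31 not called. The 250 bases before the start site are given below for Ccnb2 and Plk1, which rose, for Cenpf, Kif11 and Smc2, which fell, and for Cdk1, which was not called. Capitals mark the CHR, CCAAT and E2F matches, on either strand. They are at chr9:70421555-70421804 on the minus strand (Ccnb2), chr7:122159185-122159434 on the plus strand (Plk1), chr1:189688087-189688336 on the minus strand (Cenpf), chr19:37376132-37376381 on the plus strand (Kif11), chr4:52438971-52439220 on the plus strand (Smc2) and chr10:69352913-69353162 on the minus strand (Cdk1), all within the ATAC-seq peak of the gene.
Ccnb2: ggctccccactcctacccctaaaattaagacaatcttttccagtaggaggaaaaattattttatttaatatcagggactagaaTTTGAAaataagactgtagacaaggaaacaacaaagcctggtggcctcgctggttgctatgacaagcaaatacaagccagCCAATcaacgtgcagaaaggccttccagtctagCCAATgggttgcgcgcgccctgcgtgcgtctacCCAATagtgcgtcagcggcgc
Plk1: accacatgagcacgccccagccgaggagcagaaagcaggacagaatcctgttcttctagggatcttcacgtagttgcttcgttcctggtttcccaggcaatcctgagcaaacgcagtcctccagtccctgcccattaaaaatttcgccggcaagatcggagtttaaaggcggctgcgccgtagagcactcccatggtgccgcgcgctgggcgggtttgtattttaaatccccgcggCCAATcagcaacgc
Cenpf: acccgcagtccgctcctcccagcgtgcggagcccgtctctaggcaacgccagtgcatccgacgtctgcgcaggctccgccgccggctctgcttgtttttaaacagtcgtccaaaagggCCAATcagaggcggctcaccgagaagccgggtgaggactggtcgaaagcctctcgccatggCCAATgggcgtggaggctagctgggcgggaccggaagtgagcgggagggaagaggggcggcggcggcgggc
Kif11: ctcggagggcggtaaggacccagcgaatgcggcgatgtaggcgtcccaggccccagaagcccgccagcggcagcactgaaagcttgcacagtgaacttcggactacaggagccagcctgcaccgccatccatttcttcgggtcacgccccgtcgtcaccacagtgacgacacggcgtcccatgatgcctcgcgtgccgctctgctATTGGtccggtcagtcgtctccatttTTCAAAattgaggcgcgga
Smc2: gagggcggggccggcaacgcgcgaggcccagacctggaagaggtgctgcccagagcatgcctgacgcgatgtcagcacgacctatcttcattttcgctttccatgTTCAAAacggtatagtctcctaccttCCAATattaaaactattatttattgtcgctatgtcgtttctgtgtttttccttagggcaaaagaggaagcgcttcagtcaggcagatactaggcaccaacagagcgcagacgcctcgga
Cdk1: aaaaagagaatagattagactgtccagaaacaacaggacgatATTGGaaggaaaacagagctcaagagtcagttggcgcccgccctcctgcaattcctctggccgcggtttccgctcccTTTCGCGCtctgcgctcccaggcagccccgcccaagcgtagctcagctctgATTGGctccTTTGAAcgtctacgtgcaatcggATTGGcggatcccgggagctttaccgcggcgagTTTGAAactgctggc
The Ccnb2 stretch holds 3 CCAAT boxes that begin 87, 54 and 21 bases before the start and a CHR at 167, and another CHR begins 4 bases past the first transcribed base, outside the printed letters. In Plk1 and Cenpf the only CHR match lies outside the printed letters too, beginning 30 and 2 bases past that base. Smc2 has a printed CHR at 145 and another that begins 26 bases past that base. Cdk1 holds 3 CCAAT boxes and CHR matches that begin 71 and 15 bases before the start, and Kif11 holds 1 CCAAT box at 45 and 1 CHR at 19.

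Start-site accessibility depended on how the libraries were scaled, in direction as well as in size. With TMM over all peaks, 22 of the 52 peaks fell and 2 rose in Carm1KO (calls need a log2 fold change of at least 0.5 in size), beside 32.4% and 38.7% of all 111116 peaks tested. In NfibR388K 26 fell and 3 rose, beside 34% and 39.3%, and with the mutants together 23 fell and 3 rose, beside 34.9% and 41%. All 6 mutant libraries were below all TKO libraries for 25 peaks, against 28.6% of all peaks, and above for 2, against 33.1%. The median of the 52 peaks together was -0.46 under TMM, beside -0.38 over the 14787 start-site peaks of protein-coding genes, of which 40% fell and 14.6% rose, while the median of all peaks was 0.24. With the scaling on start-site peaks of uniformly expressed genes, 1 peak fell and 4 rose (median -0.06). That scaling used 1323 start-site peaks of genes whose RNA log2 fold change was under 0.25 in size in both mutants of these data. Because the scaling centers such peaks, a median near 0 for start-site peaks is partly built in. Under library totals alone none fell and 9 rose (median 0.13). All peaks had medians of 0.64 and 0.81 under these scalings, with 28.8% lower and 46.6% higher on start-site peaks and 27.2% and 49.4% under totals. With median-of-ratios size factors 35 of the 52 peaks fell and 2 rose (median -0.62), beside 37.9% and 38.8% of all peaks (median 0.08). DESeq2 gave 34 and 2 (median -0.62), beside 38.3% and 39.9%. The median of the 52 peaks was thus below that of all peaks under each of these 5 settings, while its sign and the number of calls changed with the scaling. Most of that gap under TMM was shared by start-site peaks of protein-coding genes in general (-0.38 beside -0.46). Their median is not given for the other settings.

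**Figure D5:**
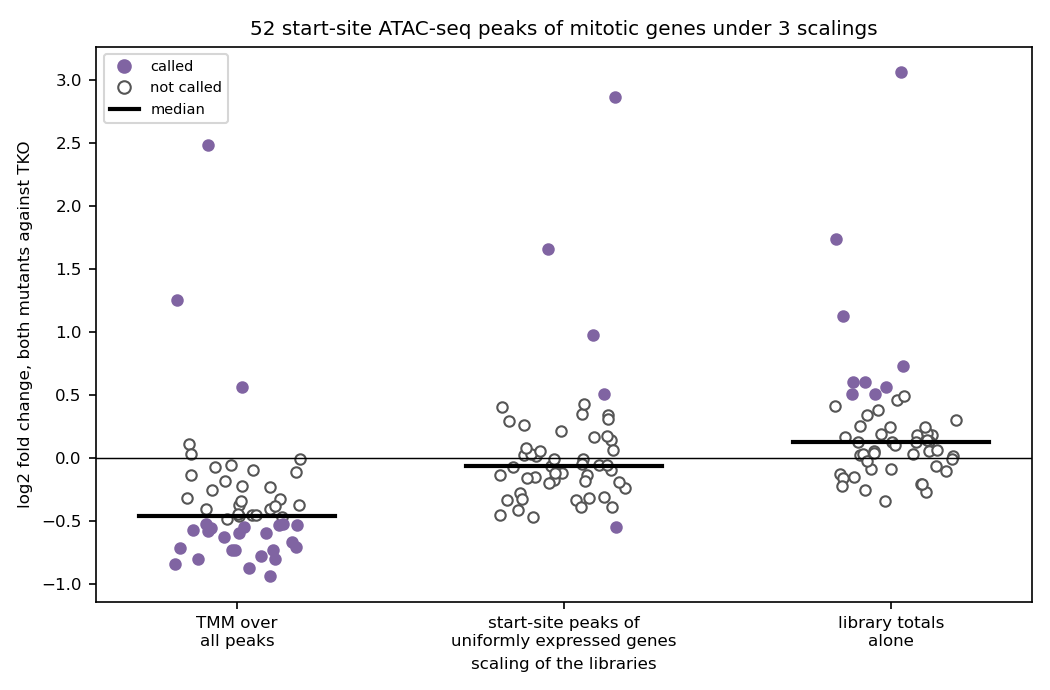
Log2 fold change of the 52 start-site peaks with both mutants against TKO, under 3 scalings of the same counts, with filled points for called peaks and a line at the median. The median moves from -0.46 to -0.06 and 0.13, and the uppermost points, the second Ect2 peak and the Ccnb2 peak, stay above 0 throughout.

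The peaks called under TMM, on start-site peaks and under library totals alone were those of Ccnb2 and Pttg1 and the second of Ect2, all higher. The Ccnb2 peak (chr9:70420919-70422131) was at 2.58, 2.44 and 8.83 CPM in TKO replicates 1 to 3, 11.8, 9.81 and 11.4 in Carm1KO and 10.9, 11.1 and 10.8 in NfibR388K. All mutant libraries were above all TKO libraries, with TKO replicate 3 nearest to them, and the log2 fold change was 1.25 ± 0.42 SE, adjusted p = 0.0195 under TMM, 1.66 on start-site peaks and 1.74 under totals. The second Ect2 peak, 871 bp from the start site (chr3:27154732-27155903), was at 0.797, 0.742 and 1.01 CPM in TKO replicates 1 to 3, 0.956, 4.55 and 4.71 in Carm1KO and 5.62, 5.68 and 8.63 in NfibR388K. Carm1KO replicate 1 lay among the TKO values and the other 5 mutant libraries above them (2.48 ± 0.55 SE, adjusted p = 0.002), whereas the peak over the Ect2 start was at -0.22. The Pttg1 peak, at 6.25, 7.26 and 7.31 CPM in TKO replicates 1 to 3, 10.5, 7.70 and 9.84 in Carm1KO and 12.7, 9.74 and 11.1 in NfibR388K, was 0.56 ± 0.25 SE, adjusted p = 0.0596 under TMM, 0.98 on start-site peaks and 1.13 under totals. It was not called under median-of-ratios size factors or DESeq2, nor without TKO, Carm1KO or NfibR388K replicate 1. The Kif18a peak, at 36.6, 37.2 and 25.7 CPM in TKO replicates 1 to 3, 14.1, 18.2 and 20.1 in Carm1KO and 16.4, 19.9 and 15.1 in NfibR388K, was the lowest, at -0.94 ± 0.18 SE, adjusted p = 0.000997 under TMM and -0.54 on start-site peaks, but was not called under totals (-0.34).

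Among the other genes followed above, the peaks of Cdk1 (-0.84 ± 0.15 SE, adjusted p = 0.00065), Cenpf (-0.80 ± 0.17 SE, adjusted p = 0.00145), Smc4 (-0.72 ± 0.16 SE, adjusted p = 0.00225) and Mki67 (-0.67 ± 0.15 SE, adjusted p = 0.00208) were called lower under TMM. None of them was called lower on start-site peaks of uniformly expressed genes or under library totals alone. Their calls under median-of-ratios size factors and DESeq2 are not given here. The Cdk1 peak was at 47.1, 48.2 and 49.1 CPM in TKO replicates 1 to 3, 24.6, 33.3 and 25.0 in Carm1KO and 20.8, 30.7 and 26.7 in NfibR388K. Its accessibility under TMM was lower in every mutant library while its RNA overlapped between genotypes. Anln showed opposite calls, with RNA higher and its peak lower under TMM (-0.53 ± 0.14 SE, adjusted p = 0.00491), and the peak value was -0.13 on start-site peaks and 0.06 under totals. Plk1 (-0.45), Kif11 (-0.49), Top2a (-0.38) and Smc2 (-0.37) had peaks that were not called with the mutants together. Of the 10 genes whose RNA fell with the mutants together, 6 had a peak called lower under TMM, and of the 3 whose RNA rose, Ccnb2 had a peak called higher. Under TMM 44.2% of the 52 peaks and 40% of all start-site peaks of protein-coding genes fell, and 5.77% and 14.6% rose. Of those 6 peaks, Kif18a alone was still called lower on start-site peaks of uniformly expressed genes, and none was under library totals alone. Across 51 genes the RNA and peak log2 fold changes had a Spearman correlation of 0.27 and a Pearson correlation of 0.48, and 11 of the 52 peaks also cover the start site of another gene. Between the mutants no peak was called (background 0% lower and 0% higher), with 1 of the 52 peaks and 6814 of all peaks at an unadjusted p below 0.05 in edgeR's test, and DESeq2 called none of the 52 but 1060 of 111664 peaks in all.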

How the data were processed

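RNA-seq and ATAC-seq were available for 9 libraries each, 3 per genotype. The deposited RNA counts per gene were made by the authors with HTSeq after hisat2 alignment to mm10, and the deposited ATAC counts per peak with featureCounts 1.6.3 per the file headers, on peaks called by Genrich in the submitters' notes and by MACS2 in the study's methods. Column names (C, KO and N with a replicate number) were matched to genotypes by name. The 5 HTSeq summary rows were left out. Counts were filtered (filterByExpr), scaled by TMM and fitted over all libraries of an assay with edgeR 4.0.16 (robust quasi-likelihood, genotype alone as term, Benjamini-Hochberg over all features, R 4.3.3). Thresholds were an adjusted p of 0.1 and a log2 fold change of 0.8 (RNA) or 0.5 (ATAC), after the study. DESeq2 1.42.0, other scalings and filters, and leaving out each library were alternatives. Scripts were tested on simulated data, where the edgeR fit was run on RNA counts with 200 changed genes and not on ATAC counts. Standard errors are from the fit. The members, roles and lists were chosen with earlier results of these data known. Values per library are given for the 2 most abundant genes of each role, Mki67, Top2a, Cdk1, Plk1, Foxm1 and Mybl2, and the 5 lowest and 3 highest log2 fold changes, and others were chosen after their values were seen. Some single-gene values are not reported here. Gene and start-site positions are from GENCODE vM21 on GRCm38.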

Additional observations from a re-analysis of the deposited data

How the results depend on the processing

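RNA calls were within 1.5 times the counts given above under all but a few alternatives. The offset for GC content, chosen after seeing the data, gave 6 calls in Carm1KO and 9 in NfibR388K, where 15 and 14 were made without it. Of all 15514 genes, 5805 and 6779 were called with the offset and 6021 and 7099 without it. Without a minimum fold change, 24 genes were called with the mutants together in place of 13, beside 9075 in place of 7282 of all 15514 genes. DESeq2 called 1 gene between the mutants in place of 0, beside 538 of all 27468 genes. Leaving out each library gave 10 to 17 calls in Carm1KO, 11 to 18 in NfibR388K, 12 to 16 together and 0 between the mutants. Over all genes these fits made 4669 to 6415, 6153 to 7390, 6587 to 7750 and 0 to 2 calls. For start-site peaks, library totals alone gave 8, 8 and 9 calls (Carm1KO, NfibR388K and together) in place of 24, 29 and 26, start-site peaks of uniformly expressed genes 4, 5 and 5, totals without the largest peaks 5, 6 and 5, and a minimum of 10 counts in every library 14, 17 and 15. The cause was not tested. Over all 111116 peaks, calls with the mutants together were 84365 under TMM and 85107, 83782 and 83648 under those 3 scalings. With the minimum of 10 counts they were 42389 of 65496. Leaving out each library gave 13 to 24, 21 to 32, 19 to 29 and 0. Over all peaks these fits made 71757 to 80158, 75543 to 82141, 78038 to 84563 and 0 to 50 calls. Of the 52 peaks, 15 were called in Carm1KO without TKO replicate 2 (72718 of all peaks) and 13 without Carm1KO replicate 1 (71757).

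Replicate numbers are shared by the genotypes, but deviations of same-numbered libraries correlated at -0.30 to 0.12 (RNA) and -0.14 to 0.12 (ATAC), and a library correlated best with its own number in 6 of 18 and 5 of 18 comparisons. The numbers were therefore not used as pairs. With the replicate block, 13 RNA genes and 25 peaks were called with the mutants together, against 13 and 26 without it. Over all features the block gave 6860 genes and 82593 peaks, against 7282 and 84365. Groups of 3 libraries limit which differences can be called, the intervals cover these libraries only, and the difference in cell markers between the genotypes cannot be told apart from genotype.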
